A study of Mus musculus with 17 samples.

Results

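The interferon-stimulated genes described here were a set of 40 genes, of 35971 genes in the count table, whose transcripts were summed to genes across 17 mouse kidney libraries. They were chosen by measured values of these same libraries, to see whether their levels follow the PRCC-TFE3 fusion, the Hif2α flox allele, or both. Their values in these libraries are therefore given as a description, with no p for single members, and counts of calls only say how many values lay past the threshold. All 40 passed the filter on low counts that left 16995 genes for testing, with counts from 22 to 5474 per library and member.

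The study asked what the fusion protein PRCC-TFE3, which drives a subtype of renal cell carcinoma, does to the mouse kidney and what the hypoxia-inducible factors Hif1α and Hif2α add. All 17 mice carried a lox-stop-lox PRCC-TFE3 knock-in allele, which is silent until Cre removes the stop cassette. The Cre came from the Ksp (Cadherin 16) promoter, which is active in tubular epithelium, so that recombination is directed at tubules and not at the immune or vascular cells of the organ. The 4 Cre(-) kidneys had no Cre, and replicates 1 and 2 of them were homozygous for a Hif1α flox allele whereas replicates 3 and 4 had no flox allele. The 3 KI kidneys had the knock-in with Cre and both Hif genes intact. The 4 Hif1α KO kidneys added homozygous Hif1α flox alleles, the 3 Hif2α KO kidneys added homozygous Hif2α flox alleles, and the 3 DKO kidneys added both. Kidney tissue was sequenced as polyA RNA, 1 mouse per library, and the labels give neither age, sex nor strain. Library numbers largely followed the groups, so that library order and genotype cannot be told apart.

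Interferons are secreted when a cell senses foreign or misplaced nucleic acid. They bind surface receptors whose kinases JAK1 and TYK2 activate STAT2 and related factors, which join IRF9 and enter the nucleus to switch on a shared battery of antiviral genes. In the kidney this battery is known from viral infection, lupus nephritis and injury, and both tubular epithelium and immune cells can express it.

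The libraries held 16504419 to 24668827 expected counts. By group, the totals were 18547274, 22641506, 18797525 and 19841142 for Cre(-), 16504419, 17851649 and 18173319 for KI, 16710464, 18654013, 19090161 and 24668827 for Hif1α KO, 21711031, 20807326 and 18001108 for Hif2α KO, and 18635282, 17347474 and 18496076 for DKO. Levels are counts-per-million values (CPM) on library sizes scaled by the trimmed mean of M-values (TMM). A level of 3 counts was 0.117 to 0.205 CPM, depending on the library. The labels were checked against marker genes. Gpnmb, a lysosomal glycoprotein gene and a known TFE3 target, was at 0.986 to 2.13 CPM in the Cre(-) kidneys and at 2803 to 15515 CPM in the 13 Cre-positive kidneys, so each library matched its Cre label. Cdh16, the gene whose promoter drives the Cre and a marker of tubular epithelium, was at 583 to 1220.5 CPM. Whole-gene counts of the floxed genes could not check the flox labels, because Hif1a was at 161 to 203 CPM in the libraries labelled as lacking it and at 171 to 257 CPM in the other Cre-positive libraries, and Epas1, which encodes Hif2α, was at 137 to 165 CPM with its flox allele and at 162 to 194 CPM without it.

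The promoters of the members are shown as a description of the set, and their part in the changes was not tested. RefSeq sequences for GRCm38.p6 covering 250 bases before to 50 bases after the annotated start were at hand for 29 of the 40 members. Dhx58, Mx1, Usp18, Iigp1, Oas2, Zbp1, Rtp4, Parp14, Parp9, Ifi27 and Mx2 had no entry. The following stretches are 100 bases each, written 5′ to 3′ along the strand of the gene, and capitals mark matches to the core of the interferon-stimulated response element, GAAANNGAA or its reverse complement. Isg15, Ifit1 and Ifit3 stand for members with 3 matches, Oas1a and Bst2 for members higher in both comparisons, and Gbp2, Gbp3 and Rsad2 for members that moved in opposite directions in the KI kidneys.
Isg15: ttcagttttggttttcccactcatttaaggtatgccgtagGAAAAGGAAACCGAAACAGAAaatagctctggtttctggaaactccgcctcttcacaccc
Ifit1: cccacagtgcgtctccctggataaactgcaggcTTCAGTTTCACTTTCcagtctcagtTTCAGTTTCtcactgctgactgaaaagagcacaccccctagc
Ifit3: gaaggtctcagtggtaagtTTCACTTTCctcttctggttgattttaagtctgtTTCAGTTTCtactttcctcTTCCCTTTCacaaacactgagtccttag
Oas1a: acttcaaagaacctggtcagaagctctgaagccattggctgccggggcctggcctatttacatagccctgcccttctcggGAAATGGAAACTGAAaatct
Bst2: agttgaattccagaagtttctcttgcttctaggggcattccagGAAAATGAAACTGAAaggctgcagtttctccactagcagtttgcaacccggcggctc
Gbp2: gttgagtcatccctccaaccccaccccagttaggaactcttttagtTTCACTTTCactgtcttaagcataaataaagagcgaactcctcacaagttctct
Gbp3: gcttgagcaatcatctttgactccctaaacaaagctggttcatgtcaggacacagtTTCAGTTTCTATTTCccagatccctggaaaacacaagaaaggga
Rsad2: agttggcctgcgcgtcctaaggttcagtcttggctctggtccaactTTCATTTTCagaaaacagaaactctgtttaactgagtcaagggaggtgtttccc
The Isg15 stretch was chr4:156200837-156200936 on the minus strand and the Ifit1 stretch was chr19:34640747-34640846 on the plus strand. Ifit3 came from chr19:34583355-34583454 on the plus strand, Oas1a from chr5:120907526-120907625 on the minus strand and Bst2 from chr8:71537546-71537645 on the minus strand. Gbp2 came from chr3:142620559-142620658 and Gbp3 from chr3:142559944-142560043, both on the plus strand, and Rsad2 from chr12:26456518-26456617 on the minus strand.

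The response element core is read by the complex that holds STAT2 and IRF9 and by other IRF proteins. Searched on both strands, its letters GAAANNGAA were present in the promoters of 17 of the 29 members with an entry (58.6%), against 9.76% of 27025 genes and 8.56% of all 32851 promoters of the same length. The gamma-activated sequence TTCNNNGAA was present for 6 of 29 members (20.7%) and for 9.55% of all genes. Its reverse complement has the same letters. These 6 members were Ifit2, Oas1a, Eif2ak2, Bst2, Igtp and Ifi35. The E-box CACGTG, which TFE3 and its relatives bind, was present for 0 of 29 members and 8.09% of all genes. The longer M-box, written TCACGTGA, TCACATGA, TCATGTGA or TCATATGA, was present for 0 of 29 members and 2.62% of all genes, and its version TCACGTGA contains the E-box. The hypoxia response element core ACGTG, which lies within CACGTG, was present for Oasl2 and Igtp, 2 of 29 members (6.9%), and for 21.8% of all genes. A match describes letters and is no evidence of binding, and the window covers only the bases next to the start. The members are interferon-stimulated genes by choice, so their higher share of the interferon element is no result of these kidneys.

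**Figure D1:**
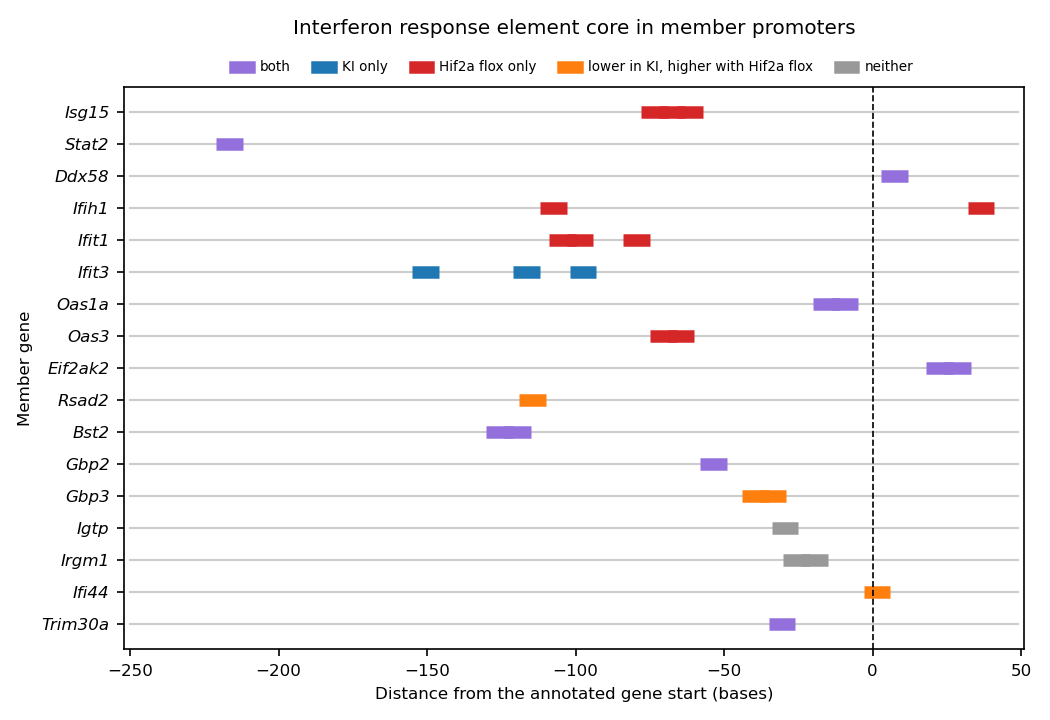
Positions of the interferon response element core in the 17 member promoters that held it, in bases from the annotated gene start (dashed line), from 250 bases before to 50 after it. Bars are matches on either strand, coloured by whether the gene was called in KI against Cre(-), with the Hif2α flox allele, both or neither, and those of Isg15, Ifit1 and Ifit3 are 3 each.

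The KI kidneys were compared with Cre(-) to describe the fusion with both Hif genes intact, and the cause of differences was not tested. The members there were on the whole modestly higher, with a median log2 fold change of 0.34 against 0.04 for all 16995 genes, and they spread from -1.46 for Cmpk2 to 3.18 for Mx1. In the quasi-likelihood test of edgeR, adjusted over all genes by Benjamini-Hochberg, an adjusted p under 0.05 was reached by 20 members in the higher direction and by 4 in the lower, where 31.9% of all genes were higher and 29.1% were lower. By limma on log2 TPM, 32 members were called, where 52.0% of all genes were higher and 14.5% were lower. At an unadjusted p under 0.05, limma had 30 members higher and 3 lower, beside 54.3% and 15.1% of all genes. The comparison used in the choice of members allows no reading of these counts. In 15 members all 3 KI libraries were above all 4 Cre(-) libraries, as for 29.3% of all genes, and in 4 members all were below, as for 27.6%. The count of 15 became 26 without KI replicate 3. Across the 13 Cre-positive libraries, 15 members were above all Cre(-) libraries (20.3% of all genes), which became 24 without KI replicate 3. Below all Cre(-) libraries was 1 member, Gbp3 (20.5% of all genes), which became 3 without Cre(-) replicate 3. These shares of all genes are for all libraries. Fewer libraries make non-overlap easier for every gene, and KI replicate 3 was the lowest KI library for 32 of 40 members (37.0% of all genes). Without shares of all genes for the smaller sets, whether the larger counts are particular to the members was not tested.

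The Hif2α flox allele was compared as the mean of the Hif2α KO and DKO groups against the mean of the KI and Hif1α KO groups, on the log2 scale, and is called the Hif2α effect. Every member had a positive value, from 0.06 for Mx1 to 1.30 for Zbp1, with a median of 0.54 against 0.01 for all genes. The adjusted p was under 0.05 for 30 members in the higher direction and 0 in the lower, beside 3.97% and 3.19% of all genes. The 0 was also 0 at an unadjusted p under 0.05, by edgeR and by DESeq2. In 23 of 40 members the 6 libraries with the Hif2α flox allele were all above the other 7 Cre-positive libraries, as in 1.02% of all genes, and in 0 members they were all below, as in 0.830%. Since the allele also figured in the choice of the members, these counts describe the set and test nothing.

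Within the Hif2α effect, both backgrounds can be read side by side. For Hif2α KO against KI, the median of the members was 0.67, and 19 members were called higher and 0 lower, beside 0.741% and 0.488% of all genes, with 35 members higher and 0 lower at an unadjusted p under 0.05, beside 10.9% and 7.91% of all genes. DESeq2 called 31 members higher and 0 lower, beside 3.12% and 2.84% of all genes. The 19 became 3 without KI replicate 3, 2 without Hif2α KO replicate 2 and 9 without KI replicate 2, for which no shares of all genes are given. Fitted on the libraries of these 2 groups alone, edgeR called 0 members and 2 of all genes, with 35 members higher at an unadjusted p under 0.05, beside 7.28% of all genes. For DKO against Hif1α KO, the median was 0.34, and edgeR called 0 members in either direction, beside 0.0706% of all genes higher and 0.241% lower. At an unadjusted p under 0.05 there were 21 members higher and 0 lower, beside 7.06% and 6.02% of all genes. DESeq2 called 5 members, all higher (0.830% of all genes higher), limma on log2 TPM called 0 (0.288%), and edgeR fitted on these 2 groups alone called 3 (0.215%). The difference between both contrasts, the interaction, had a median of -0.32 in the members. Here edgeR called 0 members and 0% of all genes in the higher and the lower direction. At an unadjusted p under 0.05 there were 13 members, all with negative values (3.34% of all genes lower), DESeq2 called 0 members, and 1005 of all genes were at an unadjusted p under 0.05 (5.91%), so a difference of the Hif2α allele between Hif1α backgrounds was not called for any member. A missing call does not show that the backgrounds were alike.

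The Hif1α flox allele was not named in the choice of members, but its comparisons reuse the KI libraries, so its values are also a description. For the Hif1α effect, the mean of Hif1α KO and DKO against the mean of KI and Hif2α KO, the median of the members was 0.04 against 0.00 for all genes. The adjusted p was under 0.05 for 1 member higher and 2 lower, beside 1.72% and 2.79% of all genes, and 2 were higher and 2 lower at an unadjusted p under 0.05, beside 10.4% and 11.7% of all genes. Ifi44 was the 1 higher and Mx1 and Mx2 the 2 lower. For Hif1α KO against KI, 2 members were higher (Ifi44 and Rtp4) and 1 lower (Mx1), beside 2.64% and 2.92% of all genes. The median there was 0.17 against -0.01 for all genes, 31 of 40 members had a positive value (49.1% of all genes), and 11 members were higher and 1 lower at an unadjusted p under 0.05, beside 11.1% and 11.1% of all genes. Without overlap there were 0 members whose 7 Hif1α flox libraries were all above the other 6 Cre-positive libraries (0.229% of all genes) and 1, Mx1, with all below (0.524%). Calls this few moved with single libraries. For the Hif1α effect, the 1 higher member became 0 when any of Hif1α KO replicates 1, 3 or 4, Hif2α KO replicate 3, DKO replicates 2 or 3, or KI replicates 2 or 3 was left out. The 2 lower became 1 without any of Hif1α KO replicates 1, 3 or 4, Hif2α KO replicates 2 or 3, DKO replicate 2 or any KI replicate, and 0 without DKO replicate 3. For Hif1α KO against KI, the 2 higher became 4 without KI replicate 1 and 1 without any other KI or Hif1α KO library, and the 1 lower became 0 without Hif1α KO replicates 1 or 3 or KI replicates 2 or 3.

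Against the Cre(-) kidneys, which all these comparisons share, the Hif2α KO kidneys had 36 members higher and 2 (Cmpk2 and Gbp3) lower (32.7% and 29.1% of all genes), with a median of 1.28. The Hif1α KO kidneys had 29 higher and 3 (Rsad2, Cmpk2 and Gbp3) lower (32.0% and 30.0%), with a median of 0.72. The DKO kidneys had 35 higher and 2 (Cmpk2 and Gbp3) lower (30.8% and 27.4%), with a median of 1.19. The 2 lower became 1 for Hif2α KO without Cre(-) replicates 2 or 4 or Hif2α KO replicates 1 or 3, and for DKO without Cre(-) replicates 1, 2 or 4 or DKO replicates 1 or 3. By limma on log2 TPM, 0 members were lower in Hif2α KO and 0 in DKO, where 12.4% and 10.9% of all genes were lower. Both were also 0 at an unadjusted p under 0.05, beside 13.1% and 11.4% of all genes. Per length, the median level of the members was 6.17 TPM (transcripts-per-million values) in Cre(-), 11.4 in KI, 12.5 in Hif1α KO, 21.3 in Hif2α KO and 18.1 in DKO kidneys. On log2 TPM with a pseudocount of 1 the median of all genes was itself higher against Cre(-), by 0.38 in KI, 0.35 in Hif1α KO, 0.43 in Hif2α KO and 0.46 in DKO, and relative to all genes the median of the members was 0.33, 0.63, 1.14 and 0.97. On that scale Lgals3bp was the most abundant member in each Cre-positive group, with mean levels of 158 TPM in KI and 234 TPM in Hif2α KO, and Oas3 the least abundant, with 0.818 and 1.90 TPM.

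Sorting the members by both comparisons gave 5 classes. Higher in KI and higher with the Hif2α flox allele were 13 members, Irf7, Stat2, Ddx58, Dhx58, Zbp1, Oas1a, Eif2ak2, Bst2, Gbp2, Parp9, Parp14, Dtx3l and Trim30a, a class that held 0.941% of all genes. Higher in KI without a call for the Hif2α flox allele were 7, Irf9, Ifit2, Ifit3, Mx1, Mx2, Ifi35 and Lgals3bp (28.8% of all genes). Not called in KI and higher with the Hif2α flox allele were 13, Isg15, Uba7, Herc6, Usp18, Ifih1, Ifit1, Oas2, Oas3, Oasl1, Oasl2, Rtp4, Iigp1 and Xaf1 (1.38%). Lower in KI and higher with the Hif2α flox allele were 4, Rsad2, Cmpk2, Gbp3 and Ifi44 (1.65%). In neither class of calls were 3, Igtp, Irgm1 and Ifi27 (36.8%). Of the members with a promoter entry, the response element core was present in 7 of 9, 1 of 5, 4 of 9, 3 of 4 and 2 of 2 of these classes in that order. The classes rest on a threshold, and a missing call does not show that a gene did not differ.

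**Figure D2:**
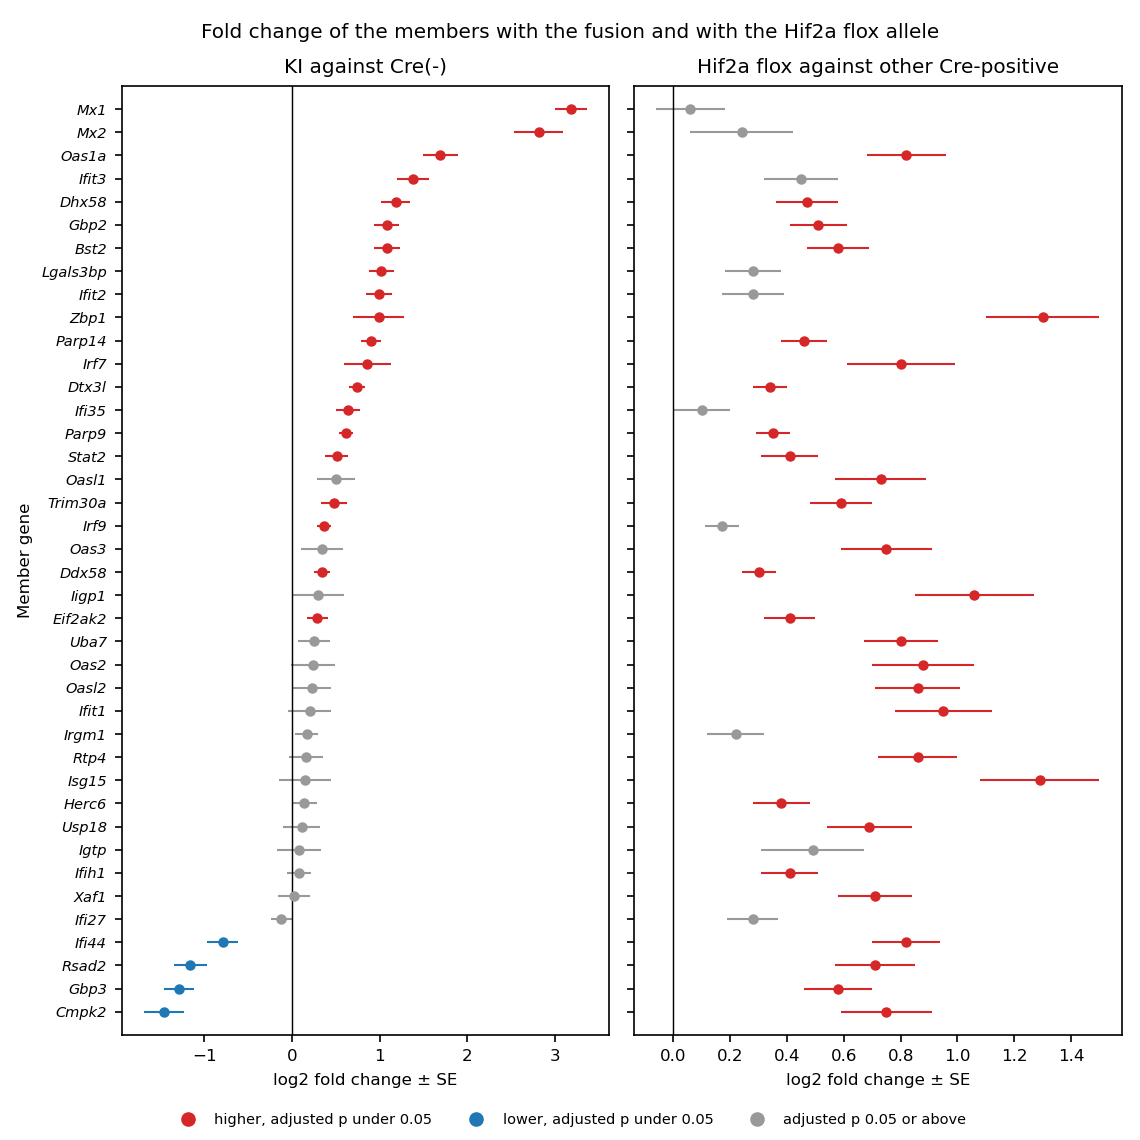
Log2 fold change of each of the 40 members in KI against Cre(-) (left) and with the Hif2α flox allele against the other Cre-positive groups (right), as points with the standard error, coloured by call. The horizontal scales differ between the panels, and members run from Cmpk2 (-1.46) to Mx1 (3.18) on the left while all values on the right lie between 0.06 and 1.30.

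Libraries differed within the KI group. The median log2 difference of the 40 members from the Cre(-) mean was 0.66, 0.52 and 0.03 in KI replicates 1, 2 and 3. It was 0.61, 0.75, 0.75 and 0.76 in the Hif1α KO libraries, 1.16, 1.41 and 1.03 in the Hif2α KO libraries and 1.16, 1.12 and 1.08 in the DKO libraries. The Cre(-) libraries lay at 0.10, -0.08, -0.10 and 0.06, and the same median over all genes stayed between -0.01 and 0.05 in the 17 libraries. The median of KI replicate 3 thus lay within the range of the Cre(-) libraries, although members such as Mx1 and Ifit3 were above and Rsad2 and Cmpk2 below all Cre(-) libraries in it, and it was the lowest of the KI libraries for 32 of 40 members, as for 37.0% of all genes. The 6 libraries with the Hif2α flox allele, at 1.03 or above, did not overlap the other 7 Cre-positive libraries, at 0.76 or below.

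**Figure D3:**
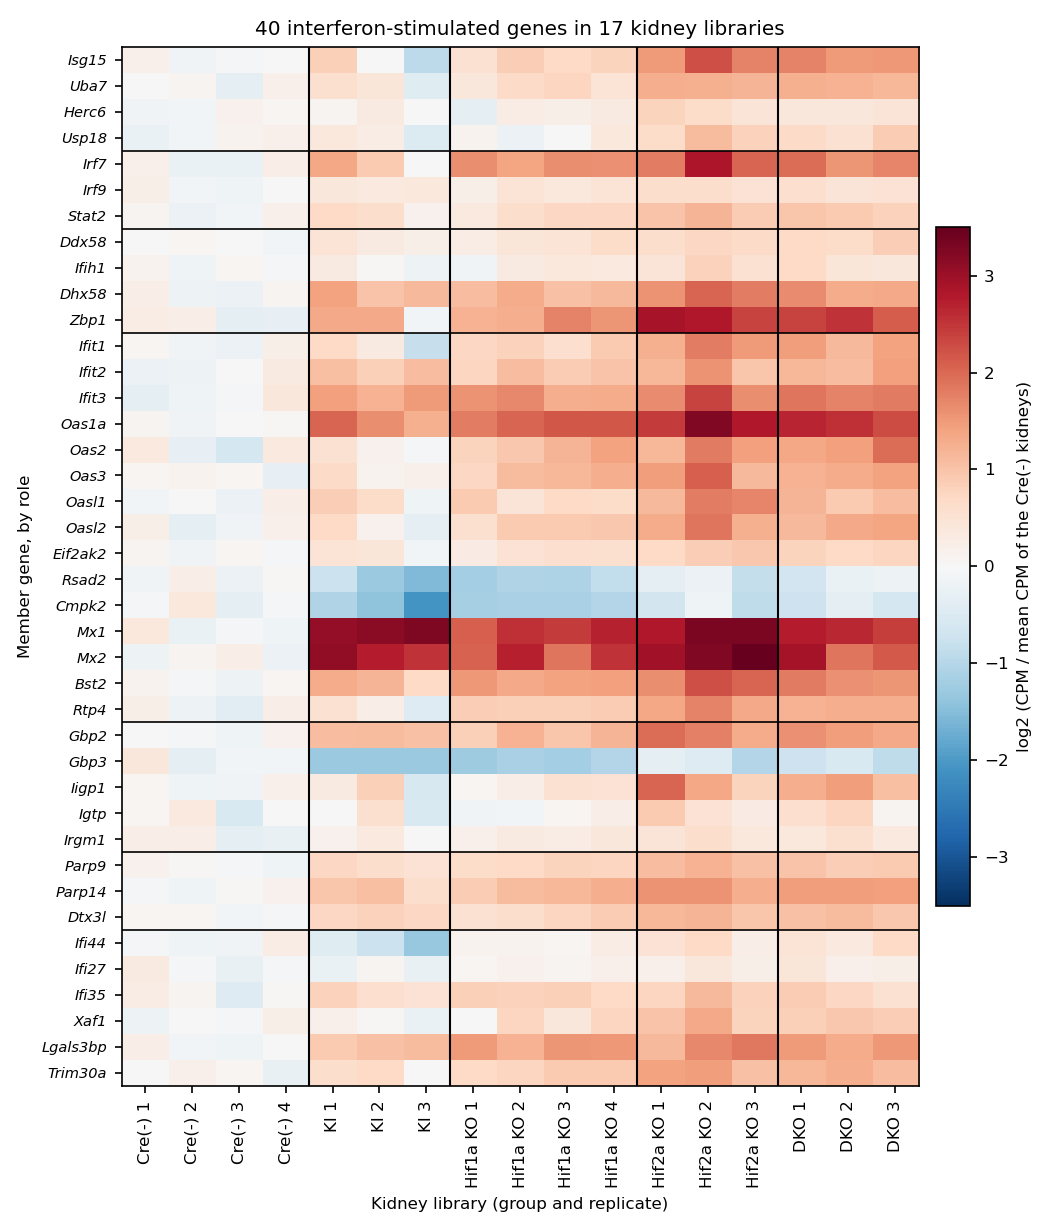
Level of the 40 members (vertical, by role) in the 17 kidney libraries (horizontal, by group), as the log2 ratio of CPM to the mean of the Cre(-) kidneys. Red is higher and blue is lower, Mx1 and Mx2 are the darkest red in the KI libraries, and Rsad2, Cmpk2 and Gbp3 are blue in the KI and Hif1α KO libraries.

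The ISG15 conjugation cycle attaches the ubiquitin-like protein ISG15 to other proteins. Isg15, the modifier itself, was at 2.66, 2.18, 2.24 and 2.33 CPM in the Cre(-) kidneys, 4.23, 2.34 and 1.25 in the KI kidneys, 3.38, 4.31, 3.82 and 4.02 in the Hif1α KO kidneys, 6.55, 11.2 and 7.82 in the Hif2α KO kidneys and 7.83, 6.63 and 6.77 in the DKO kidneys. The Hif2α flox libraries were all above the other libraries, whereas the KI libraries straddled the Cre(-) range. The log2 fold change of Isg15 came to 0.15 ± 0.30 (± SE, as for all later fold changes) for KI against Cre(-) and 1.29 ± 0.21 for the Hif2α effect. Usp18, the protease that removes ISG15 and also dampens the type I receptor, was at 4.03, 4.41, 5.13 and 5.36 CPM in the Cre(-) kidneys, 6.17, 5.72 and 3.40 in the KI kidneys, 5.16, 4.10, 4.67 and 6.09 in the Hif1α KO kidneys, 7.37, 10.2 and 8.32 in the Hif2α KO kidneys and 7.49, 6.84 and 8.82 in the DKO kidneys. It again overlapped between KI and Cre(-) and stood higher in all 6 Hif2α flox libraries, with 0.11 ± 0.21 in KI and 0.69 ± 0.15 for the Hif2α effect. Uba7, the activating enzyme of the cycle, ranged from 9.63 to 21.6 CPM without and from 28.8 to 31.0 CPM with the Hif2α flox allele (0.80 ± 0.13). Herc6, the ligase of the cycle in mice, ranged from 12.5 to 19.9 and from 20.9 to 27.2 CPM in the same libraries (0.38 ± 0.10). In each of the 4 genes of the cycle the Hif2α flox libraries were thus the highest, and all 4 were in the class without a call in KI against Cre(-).

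Among the transcription factors, Irf7 encodes the factor that amplifies interferon gene expression. Its level was 15.4, 11.5, 11.7 and 15.9 CPM in the Cre(-) kidneys, 34.9, 25.5 and 13.8 in the KI kidneys, 41.9, 35.6, 42.3 and 41.5 in the Hif1α KO kidneys, 46.8, 96.3 and 55.9 in the Hif2α KO kidneys and 52.5, 39.4 and 44.4 in the DKO kidneys. All Hif1α KO, Hif2α KO and DKO libraries were above all Cre(-) libraries, KI replicate 3 was within the Cre(-) range, and DKO replicate 2 was below 3 of the Hif1α KO libraries. On the log2 scale the differences were 0.86 ± 0.27 for KI against Cre(-), 1.42 ± 0.28 in Hif2α KO against KI and 0.17 ± 0.26 in DKO against Hif1α KO. Stat2, a signal carrier of the type I receptor, was at 38.0, 30.4, 32.8 and 40.2 CPM in the Cre(-) kidneys, 56.8, 54.5 and 39.6 in the KI kidneys, 44.7, 54.0, 58.2 and 58.3 in the Hif1α KO kidneys, 71.2, 80.4 and 65.9 in the Hif2α KO kidneys and 68.7, 66.1 and 61.6 in the DKO kidneys. Only KI replicate 3 of the Cre-positive libraries fell within the Cre(-) range for Stat2, and its values were 0.51 ± 0.13 in KI and 0.41 ± 0.10 for the Hif2α effect. Irf9, the DNA-binding part of the same complex, was at 34.4, 27.8, 26.9 and 30.4 CPM in the Cre(-) kidneys, 39.3, 38.1 and 38.5 in the KI kidneys, 34.5, 41.4, 38.9 and 41.8 in the Hif1α KO kidneys, 46.1, 45.5 and 42.4 in the Hif2α KO kidneys and 45.1, 41.2 and 42.2 in the DKO kidneys. Irf9 was higher in every Cre-positive library than in every Cre(-) library, with 0.37 ± 0.08 in KI, and 0.17 ± 0.06 for the Hif2α effect.

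The sensors detect viral or self nucleic acid. Zbp1, a sensor of left-handed nucleic acid that can start necroptosis, was at 3.14, 3.03, 2.10 and 2.14 CPM in the Cre(-) kidneys, 6.57, 6.54 and 2.44 in the KI kidneys, 6.05, 6.28, 8.64 and 7.65 in the Hif1α KO kidneys, 19.3, 18.3 and 13.3 in the Hif2α KO kidneys and 13.4, 15.0 and 11.3 in the DKO kidneys. The lowest Hif2α flox library was above the highest of the others, and KI replicate 3 was again within the Cre(-) range. Its log2 fold change of 1.30 ± 0.20 for the Hif2α effect was the largest among the members, beside 0.99 ± 0.29 in KI. Ddx58, which encodes the RNA sensor RIG-I, was at 48.2, 49.5, 47.6 and 44.2 CPM in the Cre(-) kidneys, 65.4, 59.3 and 55.1 in the KI kidneys, 56.4, 64.0, 65.6 and 73.6 in the Hif1α KO kidneys, 71.9, 77.7 and 75.7 in the Hif2α KO kidneys and 76.3, 73.7 and 85.8 in the DKO kidneys. Every Cre-positive library was above every Cre(-) library, by 0.34 ± 0.09 in KI and with 0.30 ± 0.06 for the Hif2α effect. Dhx58, a regulator of RIG-I, did the same at a lower level, with 2.70 to 3.62 CPM in Cre(-) and 6.15 to 12.7 CPM in Cre-positive libraries (1.18 ± 0.16 in KI). Ifih1, the sensor MDA5, was at 17.6 to 25.6 CPM without and 26.5 to 34.9 CPM with the Hif2α flox allele (0.41 ± 0.10).

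The effectors block viral RNA and proteins. Ifit1, which binds viral RNA caps, was at 8.40, 7.33, 6.97 and 9.15 CPM in the Cre(-) kidneys, 13.0, 9.91 and 4.59 in the KI kidneys, 13.1, 13.8, 12.0 and 14.9 in the Hif1α KO kidneys, 18.7, 27.4 and 22.5 in the Hif2α KO kidneys and 22.0, 17.5 and 21.1 in the DKO kidneys. KI replicate 3 had the lowest level of the 17 libraries, and the Hif2α flox libraries the 6 highest, with 0.20 ± 0.25 in KI and 0.95 ± 0.17 for the Hif2α effect. Ifit3, a partner of IFIT1 whose gene is its neighbour on chromosome 19, was at 26.4, 29.5, 31.2 and 43.2 CPM in the Cre(-) kidneys, 87.5, 75.3 and 91.7 in the KI kidneys, 96.5, 104, 79.1 and 80.2 in the Hif1α KO kidneys, 102, 169 and 101 in the Hif2α KO kidneys and 119, 109.5 and 115 in the DKO kidneys. All 13 Cre-positive libraries were above Cre(-), KI replicate 3 included, with 1.38 ± 0.18 in KI and 0.45 ± 0.13 for the Hif2α effect. Ifit2, another member of the family, was at 18.6 to 26.4 CPM in Cre(-) and 36.0 to 63.9 CPM in Cre-positive libraries (0.99 ± 0.15 in KI).

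The 2′-5′ oligoadenylate synthetases make the messenger that activates RNase L. Oas1a was at 2.87, 2.44, 2.63 and 2.78 CPM in the Cre(-) kidneys, 11.1, 8.33 and 6.40 in the KI kidneys, 9.31, 11.1, 12.0 and 12.1 in the Hif1α KO kidneys, 14.7, 25.1 and 18.7 in the Hif2α KO kidneys and 16.9, 15.9 and 13.0 in the DKO kidneys. It was higher in each Cre-positive library than in Cre(-) and highest with the Hif2α flox allele, at 1.69 ± 0.20 in KI and 0.82 ± 0.14 for the Hif2α effect. Oas2 was at 7.24, 4.62, 3.68 and 7.13 CPM in the Cre(-) kidneys, 8.17, 6.32 and 5.55 in the KI kidneys, 9.79, 11.0, 13.0 and 15.0 in the Hif1α KO kidneys, 12.7, 19.9 and 15.4 in the Hif2α KO kidneys and 14.5, 15.2 and 21.9 in the DKO kidneys. Its KI and Cre(-) ranges overlapped, its Hif1α KO libraries were all above both, and its log2 fold changes were 0.24 ± 0.25 in KI and 0.88 ± 0.18 for the Hif2α effect. Oasl2, an OAS-like protein with ubiquitin-like repeats, was at 18.0, 12.4, 14.3 and 17.5 CPM in the Cre(-) kidneys, 25.4, 17.2 and 12.2 in the KI kidneys, 23.0, 29.4, 29.2 and 29.8 in the Hif1α KO kidneys, 38.2, 57.3 and 36.8 in the Hif2α KO kidneys and 34.3, 38.8 and 40.7 in the DKO kidneys. The Hif2α flox libraries of Oasl2 were all above the rest, with 0.23 ± 0.22 in KI and 0.86 ± 0.15 for the Hif2α effect. Oas3 was at 1.39 to 1.86 CPM in Cre(-), 1.85 to 4.14 CPM in KI and Hif1α KO, and 3.76 to 7.30 CPM with the Hif2α flox allele (0.75 ± 0.16). Oasl1, a repressor of Irf7 translation, was at 2.89 to 6.05 and 6.05 to 11.0 CPM in the latter sets (0.73 ± 0.16), which met without overlapping, against 2.76 to 3.79 CPM in Cre(-).

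Eif2ak2 encodes the kinase PKR, which halts translation on double-stranded RNA, and was at 28.3, 24.0, 27.4 and 25.7 CPM in the Cre(-) kidneys, 36.9, 35.1 and 24.6 in the KI kidneys, 32.2, 37.4, 39.4 and 38.5 in the Hif1α KO kidneys, 42.7, 48.0 and 50.9 in the Hif2α KO kidneys and 45.6, 42.4 and 44.6 in the DKO kidneys. The ranges of KI and Cre(-) overlapped through KI replicate 3, and the values were 0.29 ± 0.12 in KI and 0.41 ± 0.09 for the Hif2α effect. Rsad2, the antiviral enzyme viperin, was at 34.1, 43.7, 31.9 and 38.2 CPM in the Cre(-) kidneys, 22.0, 15.1 and 12.7 in the KI kidneys, 16.1, 17.7, 17.6 and 20.3 in the Hif1α KO kidneys, 29.4, 32.1 and 20.8 in the Hif2α KO kidneys and 23.4, 31.5 and 32.6 in the DKO kidneys. It ran the other way in the KI kidneys, with all 3 libraries below Cre(-), at -1.16 ± 0.19, and was higher again with the Hif2α flox allele, at 0.71 ± 0.14. Cmpk2, a nucleotide kinase that supplies viperin and lies 12.8 kb from Rsad2 on chromosome 12, was at 14.9, 20.1, 12.2 and 15.0 CPM in the Cre(-) kidneys, 7.43, 5.88 and 3.68 in the KI kidneys, 6.94, 7.06, 7.05 and 7.61 in the Hif1α KO kidneys, 10.0, 13.9 and 8.37 in the Hif2α KO kidneys and 9.41, 12.4 and 10.2 in the DKO kidneys. The KI libraries were all below Cre(-) as for Rsad2, and the Hif2α flox libraries were all above the other Cre-positive ones, with -1.46 ± 0.23 in KI and 0.75 ± 0.16 for the Hif2α effect.

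Mx1, a GTPase against influenza-like viruses, was at 2.53, 1.65, 1.84 and 1.77 CPM in the Cre(-) kidneys, 16.5, 17.5 and 18.6 in the KI kidneys, 8.24, 11.4, 10.7 and 12.6 in the Hif1α KO kidneys, 13.7, 19.1 and 19.0 in the Hif2α KO kidneys and 13.0, 12.1 and 10.5 in the DKO kidneys. The KI libraries were all far above Cre(-), with the largest value of the members, 3.18 ± 0.18, and the Hif2α effect was 0.06 ± 0.12. The Hif1α flox libraries were all below the other Cre-positive libraries, with -0.62 ± 0.12 for the Hif1α effect and -0.71 ± 0.16 in Hif1α KO against KI. Mx2, its neighbour 72.4 kb away on chromosome 16, was at 1.50, 1.81, 1.97 and 1.45 CPM in the Cre(-) kidneys, 14.5, 11.2 and 9.74 in the KI kidneys, 7.00, 11.0, 6.16 and 9.76 in the Hif1α KO kidneys, 12.9, 15.8 and 19.6 in the Hif2α KO kidneys and 12.6, 6.16 and 7.41 in the DKO kidneys. All Cre-positive libraries were above Cre(-) at 2.81 ± 0.28 in KI. The Hif1α effect on Mx2 was -0.68 ± 0.18, although Hif1α KO replicates 2 and 4 and DKO replicate 1 reached into the range of the other Cre-positive libraries. Bst2, the tether that holds budding virus at the membrane, was at 14.2, 12.5, 11.5 and 13.6 CPM in the Cre(-) kidneys, 31.6, 29.7 and 20.8 in the KI kidneys, 37.4, 32.7, 34.4 and 35.3 in the Hif1α KO kidneys, 40.1, 62.3 and 53.3 in the Hif2α KO kidneys and 45.9, 39.6 and 37.8 in the DKO kidneys. It was in every Cre-positive library above Cre(-) and in the Hif2α flox libraries higher still, with 1.08 ± 0.15 in KI and 0.58 ± 0.11 for the Hif2α effect. Rtp4, a chaperone of receptors that also acts on viral RNA, was at 6.08, 4.62, 4.08 and 6.12 CPM in the Cre(-) kidneys, 7.49, 6.15 and 3.85 in the KI kidneys, 9.49, 9.29, 9.38 and 9.68 in the Hif1α KO kidneys, 13.3, 17.5 and 13.0 in the Hif2α KO kidneys and 12.1, 12.6 and 12.5 in the DKO kidneys. The KI libraries overlapped Cre(-), at 0.16 ± 0.19, the Hif2α effect was 0.86 ± 0.14, and Hif1α KO against KI was 0.70 ± 0.19.

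**Figure D4:**
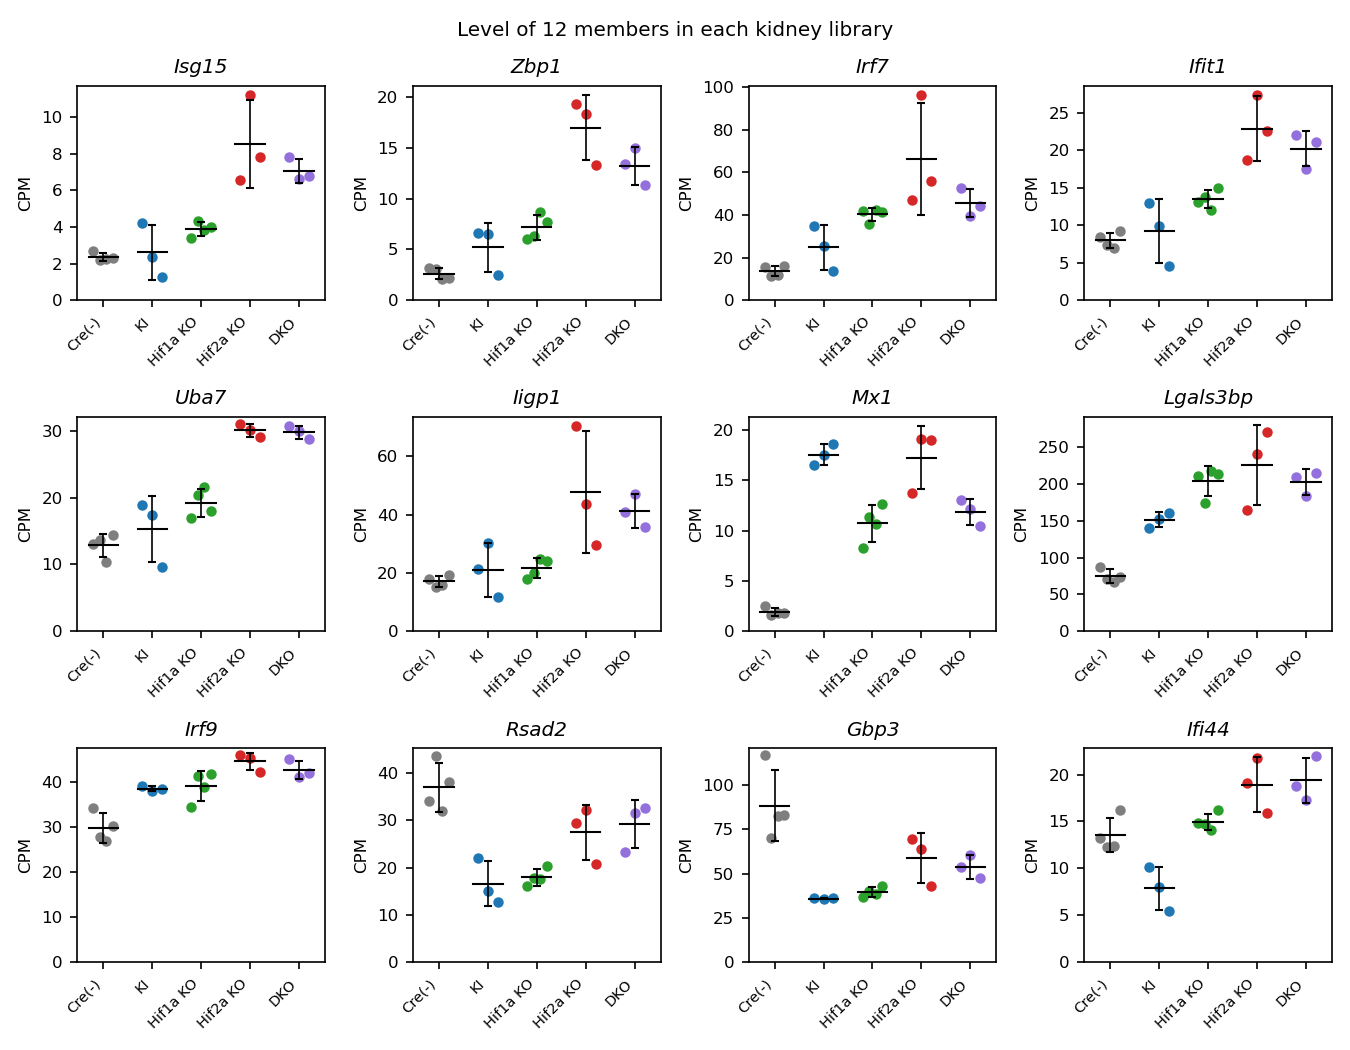
CPM of 12 members in each kidney library, with 1 point per mouse, the group mean as a horizontal line and the SD as a bar, on axes that start at 0. Isg15, Zbp1, Uba7 and Ifit1 are highest in the 6 Hif2α flox libraries, Mx1, Lgals3bp and Irf9 are higher in KI than in Cre(-), and Rsad2, Gbp3 and Ifi44 are lower in KI than in Cre(-).

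The interferon-inducible GTPases attack vacuoles that hold pathogens. Gbp2 was at 17.7, 17.0, 15.8 and 19.6 CPM in the Cre(-) kidneys, 37.0, 37.8 and 36.0 in the KI kidneys, 31.3, 40.9, 34.4 and 40.2 in the Hif1α KO kidneys, 68.2, 59.1 and 43.3 in the Hif2α KO kidneys and 53.2, 48.3 and 43.6 in the DKO kidneys. All Cre-positive libraries were above Cre(-) and the Hif2α flox libraries were highest, with 1.08 ± 0.14 in KI and 0.51 ± 0.10 for the Hif2α effect. Gbp3, whose gene lies 47.4 kb from Gbp2 on chromosome 3, was at 117, 70.2, 82.6 and 83.4 CPM in the Cre(-) kidneys, 36.1, 35.8 and 36.0 in the KI kidneys, 37.0, 40.1, 38.4 and 43.0 in the Hif1α KO kidneys, 69.7, 64.1 and 43.0 in the Hif2α KO kidneys and 53.5, 60.6 and 47.3 in the DKO kidneys. It was lower in all Cre-positive libraries than in Cre(-), with -1.29 ± 0.17 in KI, although the Hif2α effect was positive at 0.58 ± 0.12. Iigp1, an immunity-related GTPase, was at 18.0, 15.3, 15.8 and 19.3 CPM in the Cre(-) kidneys, 21.2, 30.2 and 11.6 in the KI kidneys, 17.9, 19.9, 24.7 and 24.2 in the Hif1α KO kidneys, 70.5, 43.6 and 29.4 in the Hif2α KO kidneys and 41.0, 47.2 and 35.6 in the DKO kidneys. The KI range held the Cre(-) range, the lowest Hif2α flox library was just below the highest KI library, and the values were 0.30 ± 0.29 in KI and 1.06 ± 0.21 for the Hif2α effect. Igtp and Irgm1 belong to the same family. Igtp ranged from 10.7 to 22.9 CPM without and 16.5 to 29.5 CPM with the Hif2α flox allele (0.49 ± 0.18), and Irgm1 from 24.9 to 40.7 and 39.2 to 47.5 CPM (0.22 ± 0.10), and both overlapped.

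Parp9 and Dtx3l encode a complex that marks chromatin and viral proteins, and Parp14 is a related ADP-ribosyltransferase. Their genes lie together on chromosome 16, with Parp9 and Dtx3l overlapping and Parp14 55.0 kb away. Parp9 was at 18.8 to 23.1 CPM in Cre(-), 29.7 to 35.8 CPM in KI and Hif1α KO and 37.6 to 48.7 CPM with the Hif2α flox allele (0.62 ± 0.08 in KI, 0.35 ± 0.06 for the Hif2α effect). Dtx3l was at 17.1 to 19.3, 26.7 to 34.1 and 35.1 to 42.1 CPM (0.74 ± 0.09 and 0.34 ± 0.06). Parp14 was at 25.9 to 32.1, 44.5 to 69.2 and 69.6 to 86.3 CPM (0.90 ± 0.11 and 0.46 ± 0.08). The 3 genes thus had stepwise higher ranges without overlap from Cre(-) to the Cre-positive kidneys to those with the Hif2α flox allele.

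Ifi44, an interferon-induced cytoplasmic protein, was at 13.2, 12.3, 12.4 and 16.2 CPM in the Cre(-) kidneys, 10.1, 8.01 and 5.44 in the KI kidneys, 14.8, 14.7, 14.1 and 16.2 in the Hif1α KO kidneys, 19.1, 21.8 and 15.9 in the Hif2α KO kidneys and 18.8, 17.3 and 22.0 in the DKO kidneys. KI was below Cre(-) in all libraries, at -0.79 ± 0.18, and the other Cre-positive groups reached or passed Cre(-). Its Hif1α effect was 0.48 ± 0.12 and Hif1α KO against KI was 0.93 ± 0.18, beside 0.82 ± 0.12 for the Hif2α effect. Ifi27, a mitochondrial and nuclear envelope protein, was at 41.0, 32.5, 27.7 and 31.6 CPM in the Cre(-) kidneys, 28.2, 35.7 and 27.5 in the KI kidneys, 34.8, 36.7, 35.3 and 37.6 in the Hif1α KO kidneys, 37.8, 43.7 and 38.4 in the Hif2α KO kidneys and 44.8, 37.7 and 38.5 in the DKO kidneys. KI and Cre(-) overlapped (-0.12 ± 0.12, positive on the TPM scale), and the Hif2α effect was 0.28 ± 0.09. Ifi35, which can act as an extracellular alarm signal, was at 14.2, 12.7, 8.68 and 12.2 CPM in the Cre(-) kidneys, 20.9, 17.9 and 17.0 in the KI kidneys, 21.2, 20.7, 21.3 and 19.2 in the Hif1α KO kidneys, 20.3, 26.1 and 21.0 in the Hif2α KO kidneys and 22.0, 19.6 and 17.4 in the DKO kidneys. It was higher in every Cre-positive library than in Cre(-), at 0.64 ± 0.14 in KI, with a Hif2α effect of 0.10 ± 0.10. Xaf1, a promoter of apoptosis, was at 6.01, 6.86, 6.51 and 7.89 CPM in the Cre(-) kidneys, 7.77, 7.08 and 5.83 in the KI kidneys, 6.88, 11.4, 8.94 and 11.5 in the Hif1α KO kidneys, 13.7, 17.2 and 11.7 in the Hif2α KO kidneys and 12.2, 13.2 and 12.4 in the DKO kidneys. Here KI overlapped Cre(-) (0.02 ± 0.18) and the Hif2α flox libraries were the 6 highest (0.71 ± 0.13). Lgals3bp, a secreted glycoprotein that binds galectins, was at 87.8, 70.6, 67.1 and 74.2 CPM in the Cre(-) kidneys, 140.4, 153 and 161 in the KI kidneys, 210.2, 174, 218 and 214 in the Hif1α KO kidneys, 165, 241 and 271 in the Hif2α KO kidneys and 209.7, 183 and 215 in the DKO kidneys. Every Cre-positive library was above Cre(-), at 1.02 ± 0.14 in KI, with 0.28 ± 0.10 for the Hif2α effect. Trim30a, a ubiquitin ligase that restrains inflammatory signalling, was at 9.59 to 21.8 CPM without and 23.3 to 31.7 CPM with the Hif2α flox allele (0.59 ± 0.11).

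Some of these members share sequence or position, which limits them as separate observations. Within the Ifit, Oas, Mx, Gbp and Trim30 families, and for Parp9 and Dtx3l, reads may be shared between paralogs or overlapping genes, so the level of 1 member may include reads of another. On chromosome 5, Oasl2 and Oasl1 lay 11.0 kb apart and Oas2 and Oas3 3.24 kb apart, and on chromosome 19 Ifit2 and Ifit3 lay 7.11 kb apart. The neighbours Rsad2 and Cmpk2 were both lower in KI, whereas of the neighbours Gbp2 and Gbp3 the first was higher and the second lower.

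Other genes of the pathway were taken from lists of ligands, receptors, sensors and further interferon targets, and were tested in each comparison by edgeR (quasi-likelihood, Benjamini-Hochberg over all genes). These lists were also chosen with earlier results of these data known. Their counts and p-values therefore describe the lists and are no separate support for the members. Of 21 interferon ligand genes, 16 had 0 counts in every library, which allows up to 0.117 to 0.205 CPM per library. Ifng, the gene of type II interferon, had 60 counts over all libraries and was the 1 ligand tested, at 0 to 0.631 CPM, past the threshold neither in KI nor for the Hif2α effect. Of type I ligands, Ifnb1 had 2 counts in 2 libraries, Ifna16 had 1, Ifnk 4 and Ifnz 19.

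Of 12 receptor and JAK-STAT genes, 9 rose and 1 fell in KI against Cre(-) (31.9% and 29.1% of all genes), and 1 rose and 0 fell for the Hif2α effect (3.97% and 3.19%). Socs3, a feedback inhibitor, was at 3.41 to 4.47 CPM in Cre(-) and 42.9 to 63.2 CPM in KI (3.69 ± 0.25, adjusted p = 1.24e-08). The receptor genes Ifnlr1 (1.92 ± 0.17), Ifngr1 (1.61 ± 0.15) and Ifngr2 (1.57 ± 0.10) and the signal carrier Stat3 (1.68 ± 0.12) also rose in KI. Jak2, a kinase of the interferon gamma receptor, was the 1 that fell, at -0.50 ± 0.10. By limma on log2 TPM, 0 of the 12 fell in KI, also at an unadjusted p under 0.05. Ifnar2, a chain of the type I receptor, was the 1 that rose with the Hif2α flox allele, by 0.25 ± 0.06 (edgeR adjusted p = 0.0229). The 1 became 0 without Hif2α KO replicates 1 or 2, DKO replicates 2 or 3 or KI replicate 3. The 0 that fell was 2 at an unadjusted p under 0.05, 0 by DESeq2 and 1 without KI replicate 1.

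Of 27 sensors and adaptors, 16 rose and 2 fell in KI (31.9% and 29.1% of all genes), and 4 rose and 0 fell for the Hif2α effect (3.97% and 3.19%). By limma on log2 TPM, 22 rose and 0 fell in KI (52.0% and 14.5% of all genes), and 0 fell at an unadjusted p under 0.05. In KI the largest differences were those of Aim2, a DNA sensor (2.86 ± 0.20), Isg20, an RNA exonuclease (2.68 ± 0.35), the endosomal DNA receptor Tlr9 (2.22 ± 0.54), Tlr4 (1.60 ± 0.24) and the kinase Ikbke (1.60 ± 0.10). Irf1, a transcription factor of interferon gamma responses, was at 24.2 to 38.2 CPM in KI and Hif1α KO and 38.7 to 49.1 CPM with the Hif2α flox allele (0.54 ± 0.10, edgeR adjusted p = 0.00817). Tmem173, which encodes the DNA-sensing adaptor STING, was at 4.30, 4.62, 3.88 and 4.35 CPM in the Cre(-) kidneys, 10.3, 12.0 and 7.82 in the KI kidneys, 15.7, 12.9, 13.3 and 13.2 in the Hif1α KO kidneys, 16.7, 15.8 and 12.3 in the Hif2α KO kidneys and 18.4, 19.6 and 19.0 in the DKO kidneys. It rose in KI (1.23 ± 0.14), with the Hif2α flox allele (0.52 ± 0.10, edgeR adjusted p = 0.00932) and with the Hif1α flox allele (0.40 ± 0.10, edgeR adjusted p = 0.0349), the last named after its value was seen. Tlr3, a receptor for double-stranded RNA (0.24 ± 0.07), and the RNA editor Adar (0.18 ± 0.05) were the other 2 that rose for the Hif2α effect. The call of Tlr3 ended without KI replicates 2 or 3, Hif1α KO replicates 1, 3 or 4, Hif2α KO replicates 2 or 3 or DKO replicates 1, 2 or 3 (adjusted p up to 0.116). The call of Adar ended without KI replicate 3, Hif1α KO replicate 2, Hif2α KO replicates 2 or 3 or DKO replicates 1, 2 or 3 (adjusted p up to 0.0805). The call of Tmem173 for the Hif1α effect ended without KI replicate 3, Hif1α KO replicates 1, 3 or 4, Hif2α KO replicates 2 or 3 or DKO replicates 2 or 3 (adjusted p up to 0.0851). These 4 became 2 without Hif2α KO replicate 2, KI replicate 3 or any DKO library, and 7 without KI replicate 2. The 0 that fell was 2 at an unadjusted p under 0.05, 0 by DESeq2 and 1 without KI replicate 1.

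Of 61 further interferon-stimulated genes that could be tested, 28 rose and 10 fell in KI (31.9% and 29.1% of all genes), and 25 rose and 0 fell for the Hif2α effect (3.97% and 3.19%). The median log2 fold changes were 0.42 and 0.40, against 0.04 and 0.01 for all genes. By limma on log2 TPM, 38 rose and 5 fell in KI (52.0% and 14.5% of all genes). The 25 became 16 without Hif2α KO replicate 2 and 15 without DKO replicate 2. The 0 was also 0 at an unadjusted p under 0.05 and by DESeq2, and 1 without KI replicate 1. Siglec1, a sialic acid receptor of macrophages (2.65 ± 0.26), and the DNA-sensing family genes Ifi207 (2.23 ± 0.29) and Ifi204 (1.69 ± 0.18) led those that rose in KI. Ifit1bl2 (-2.26 ± 0.34) and Apol9a (-1.66 ± 0.39) led those that fell. Apol9a was at 2.32, 2.60, 2.76 and 4.35 CPM in the Cre(-) kidneys, 1.14, 1.25 and 0.453 in the KI kidneys, 1.30, 1.45, 1.54 and 2.22 in the Hif1α KO kidneys, 4.16, 4.32 and 1.68 in the Hif2α KO kidneys and 2.86, 3.68 and 2.58 in the DKO kidneys. It was the gene of this list that rose most for the Hif2α effect (1.36 ± 0.27, edgeR adjusted p = 0.0111), followed by Slfn1 (1.03 ± 0.26), Apol9b (1.02 ± 0.24), the helicase gene Ddx60 (1.01 ± 0.22) and Oas1g (0.94 ± 0.22). The call of Slfn1 ended without KI replicate 3, Hif1α KO replicate 2, Hif2α KO replicates 1 or 2 or DKO replicate 2 (adjusted p up to 0.0728). The call of Apol9b ended without DKO replicate 2 (adjusted p up to 0.0656). The call of Oas1g ended without Hif2α KO replicate 2 (adjusted p up to 0.0501). In Hif2α KO against KI 12 rose and 0 fell, with 42 higher at an unadjusted p under 0.05 and 27 by DESeq2, and from 0 to 19 with 1 library left out, where the 0 that fell was 0 at an unadjusted p under 0.05 and by DESeq2. Of all genes, 0.741% rose and 0.488% fell there. The shares were 10.9% and 7.91% at an unadjusted p under 0.05, and 3.12% and 2.84% by DESeq2. For DKO against Hif1α KO, edgeR called 0, with 16 at an unadjusted p under 0.05, all higher, and 2 by DESeq2. Of all genes, 0.0706% were higher there by edgeR, 7.06% at an unadjusted p under 0.05 and 0.830% by DESeq2.

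Of 23 genes that lean towards interferon gamma, 11 rose and 1 fell in KI (31.9% and 29.1% of all genes), and 12 rose and 0 fell for the Hif2α effect (3.97% and 3.19%). The 12 became 4 without DKO replicate 2 and 6 without KI replicate 3, and the 0 was also 0 at an unadjusted p under 0.05 and by DESeq2. Fcgr1, an antibody receptor (2.06 ± 0.29), Nlrc5 and Ciita, the activators of MHC class I and II genes (1.74 ± 0.25 and 1.66 ± 0.36), and the immunoproteasome gene Psmb8 (1.34 ± 0.20) led those that rose in KI. Gbp10 was at 2.53, 3.35, 2.96 and 2.96 CPM in the Cre(-) kidneys, 0.114, 0.327 and 0 in the KI kidneys, 0.178, 0.934, 0.149 and 0.390 in the Hif1α KO kidneys, 2.04, 0.935 and 0.609 in the Hif2α KO kidneys and 0.985, 1.58 and 0.195 in the DKO kidneys. It fell in KI and rose with the Hif2α flox allele (edgeR adjusted p = 0.0422), but KI replicates 1 and 3 were under 3 counts, so no fold is given. Tgtp1, a GTPase of the same response (1.10 ± 0.20), Gbp4 (0.96 ± 0.26), Psmb9 (0.87 ± 0.24) and Ifi47 (0.82 ± 0.19) also rose with the Hif2α flox allele. The call of Gbp10 ended without KI replicates 1 or 3, Hif1α KO replicates 1, 3 or 4, Hif2α KO replicates 1 or 2 or DKO replicates 1 or 2 (adjusted p up to 0.121). The call of Gbp4 ended without KI replicate 3, Hif1α KO replicates 1, 2 or 4, Hif2α KO replicate 1 or DKO replicates 1, 2 or 3 (adjusted p up to 0.0974). The call of Psmb9 ended without KI replicates 1 or 3, Hif1α KO replicates 1, 2 or 4, Hif2α KO replicate 1 or DKO replicates 1, 2 or 3 (adjusted p up to 0.114). The call of Ifi47 ended without DKO replicate 2 (adjusted p up to 0.061). In Hif1α KO against KI, 5 of the 61 further interferon-stimulated genes rose and 0 fell, with a median of 0.22, 16 higher and 0 lower at an unadjusted p under 0.05 and 7 higher and 0 lower by DESeq2. Of all genes, 2.64% rose and 2.92% fell there. The shares were 11.1% and 11.1% at an unadjusted p under 0.05, and 4.59% and 5.19% by DESeq2. The 5 became 1 to 3 without Hif1α KO replicates 1 or 3 or any KI library, and 1 with only these groups fitted. For the Hif1α effect, Plac8 was the 1 of the 61 that rose (0.60 ± 0.14, edgeR adjusted p = 0.0261), a count that ranged from 0 to 5 with 1 library left out and was 10 at an unadjusted p under 0.05, and Ticam1, a Toll-like receptor adaptor, fell (-0.25 ± 0.05, edgeR adjusted p = 0.0193). Both were named after their values were seen. The call of Plac8 ended without KI replicate 2, Hif1α KO replicate 3, Hif2α KO replicates 2 or 3 or DKO replicates 2 or 3 (adjusted p up to 0.076). The call of Ticam1 ended without DKO replicate 3 (adjusted p up to 0.065).

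Cell type markers also differed between the groups, in orders that varied by cell type. Of all genes, edgeR called 31.9% higher and 29.1% lower in KI, and 3.97% and 3.19% for the Hif2α effect. At an unadjusted p under 0.05 the shares for the Hif2α effect were 14.1% and 10.9%. They were 0.741% and 0.488% by edgeR in Hif2α KO against KI, and 2.64% and 2.92% in Hif1α KO against KI. Each library came from bulk kidney tissue, so fewer cells of a type and less RNA per cell cannot be told apart. The 9 macrophage markers, none of them at 0 in all libraries, summed to 270.5, 203, 212 and 238 CPM in the Cre(-) kidneys, 1784, 1981 and 1882 in the KI kidneys, 1495, 1511, 1542 and 1512 in the Hif1α KO kidneys, 1615, 1827 and 1714 in the Hif2α KO kidneys and 1559.8, 1271 and 1180.3 in the DKO kidneys. In KI 8 of 9 rose and 0 fell by edgeR. The marker that did not rise was Csf1r, the 1 lower at an unadjusted p under 0.05 and the 1 lower by DESeq2. The most abundant was Cd68, which also encodes a lysosomal membrane protein, at 3.22 to 5.73 CPM in Cre(-) and 1073 to 1143 CPM in KI, and C1qa, a complement gene of resident macrophages, was at 18.2 to 27.4 and 96.8 to 128 CPM. For the Hif2α effect 1 of 9 fell, Cd68 itself (-0.56 ± 0.15), and 0 rose by edgeR, with 1 higher at an unadjusted p under 0.05 and 1 by DESeq2. The call of Cd68 ended without KI replicate 3, Hif1α KO replicates 2 or 4, Hif2α KO replicates 1 or 2 or DKO replicates 2 or 3 (adjusted p up to 0.0842). The group mean of the macrophage sum, most of it from Cd68 in KI, was 1882 CPM in KI, 1515 in Hif1α KO, 1719 in Hif2α KO and 1337 in DKO. The median log2 fold change of the 9 markers against Cre(-) had another order, at 2.13, 2.58, 2.73 and 2.46. In Hif2α KO against KI that median was 0.39, and edgeR called 0 of 9, with 5 higher and 1 lower at an unadjusted p under 0.05, and 2 higher and 1 lower by DESeq2. In DKO against Hif1α KO it was -0.03, and edgeR called 0, with 0 higher and 2 lower at an unadjusted p under 0.05. DESeq2 called 0 higher and 1 lower there.

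The 7 dendritic cell markers, with Itgax the most abundant and none at 0 in all libraries, summed to 31.6, 34.0, 26.4 and 30.7 CPM in the Cre(-) kidneys, 33.3, 29.6 and 17.3 in the KI kidneys, 44.6, 34.6, 48.2 and 43.0 in the Hif1α KO kidneys, 62.4, 45.2 and 49.5 in the Hif2α KO kidneys and 55.2, 63.7 and 55.0 in the DKO kidneys. KI replicate 3 had the lowest sum of the 17, as it did for the members within KI, and the Hif2α flox libraries included the 5 highest. In KI 1 rose and 3 fell, with 1 and 4 by DESeq2, 1 and 1 by limma on log2 TPM, and 0 to 1 and 2 to 5 with 1 library left out. For the Hif2α effect 3 rose, Xcr1 (1.61 ± 0.40), Clec9a (1.12 ± 0.26) and Itgax (0.94 ± 0.23), with 5 higher at an unadjusted p under 0.05 and 3 by DESeq2, and 0 fell, with 0 also at an unadjusted p under 0.05 and by DESeq2. The 3 became 0 without DKO replicate 2, 1 without KI replicate 3, Hif1α KO replicate 2 or Hif2α KO replicate 1, and 2 to 4 otherwise. For the Hif1α effect 2 of these 7 rose, from 0 to 3 with 1 library left out. The 11 T and NK cell markers, with Cd4 the most abundant and none at 0, summed to 12.1, 13.1, 10.6 and 12.3 CPM in the Cre(-) kidneys, 18.3, 32.4 and 8.61 in the KI kidneys, 29.8, 15.8, 43.7 and 32.8 in the Hif1α KO kidneys, 80.8, 31.1 and 24.4 in the Hif2α KO kidneys and 46.7, 61.9 and 35.3 in the DKO kidneys. In KI, 2 of 9 tested rose by edgeR, Cd4 and Lck, from 0 to 4 with 1 library left out, and 0 fell. Cd3d (1.10 ± 0.27) and Lck (1.02 ± 0.28) were the 2 of 9 tested that rose for the Hif2α effect, with 7 higher at an unadjusted p under 0.05 and 3 by DESeq2, and 0 fell, with 0 also at an unadjusted p under 0.05 and by DESeq2. The call of Cd3d ended without KI replicate 3, Hif1α KO replicates 2 or 4, Hif2α KO replicate 1 or DKO replicates 2 or 3 (adjusted p up to 0.0641). The call of Lck ended without KI replicates 1 or 3, Hif1α KO replicates 1, 2 or 4, Hif2α KO replicate 1 or DKO replicates 1 or 2 (adjusted p up to 0.108). The 7 B and plasma cell markers, with Jchain the most abundant, summed to 19.7, 45.6, 27.2 and 19.6 CPM in the Cre(-) kidneys, 59.5, 149.9 and 25.4 in the KI kidneys, 88.8, 48.2, 366 and 248 in the Hif1α KO kidneys, 311, 114 and 165 in the Hif2α KO kidneys and 309, 428 and 133 in the DKO kidneys. Of these 5 rose in KI, which became 0 without KI replicate 2, and 0 were called for the Hif2α effect, with 1 at an unadjusted p under 0.05 and 1 by DESeq2. In Hif2α KO against KI, edgeR called 0 dendritic, 0 T and NK and 0 B and plasma cell markers, with 4, 5 and 1 higher and 0 lower at an unadjusted p under 0.05, and 3, 1 and 0 higher by DESeq2. The medians were 0.92, 1.22 and 0.54, and the dendritic count ranged from 0 to 3 with 1 library left out. In DKO against Hif1α KO, edgeR and DESeq2 called 0 in each of these lists, with medians of 0.46, 0.76 and 0.49. At an unadjusted p under 0.05 there were 3 dendritic cell markers higher and 1 T and NK cell marker lower. In Hif1α KO against KI, edgeR called 3 macrophage markers higher and 1 lower (0 to 3 and 0 to 1 with 1 library left out), 2 dendritic cell markers higher (0 to 2), 0 T and NK cell markers (2 higher at an unadjusted p under 0.05, 0 by DESeq2) and 0 B and plasma cell markers (1 higher at an unadjusted p under 0.05, 1 by DESeq2). The part of these cells in the values of the members was not tested.

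**Figure D5:**
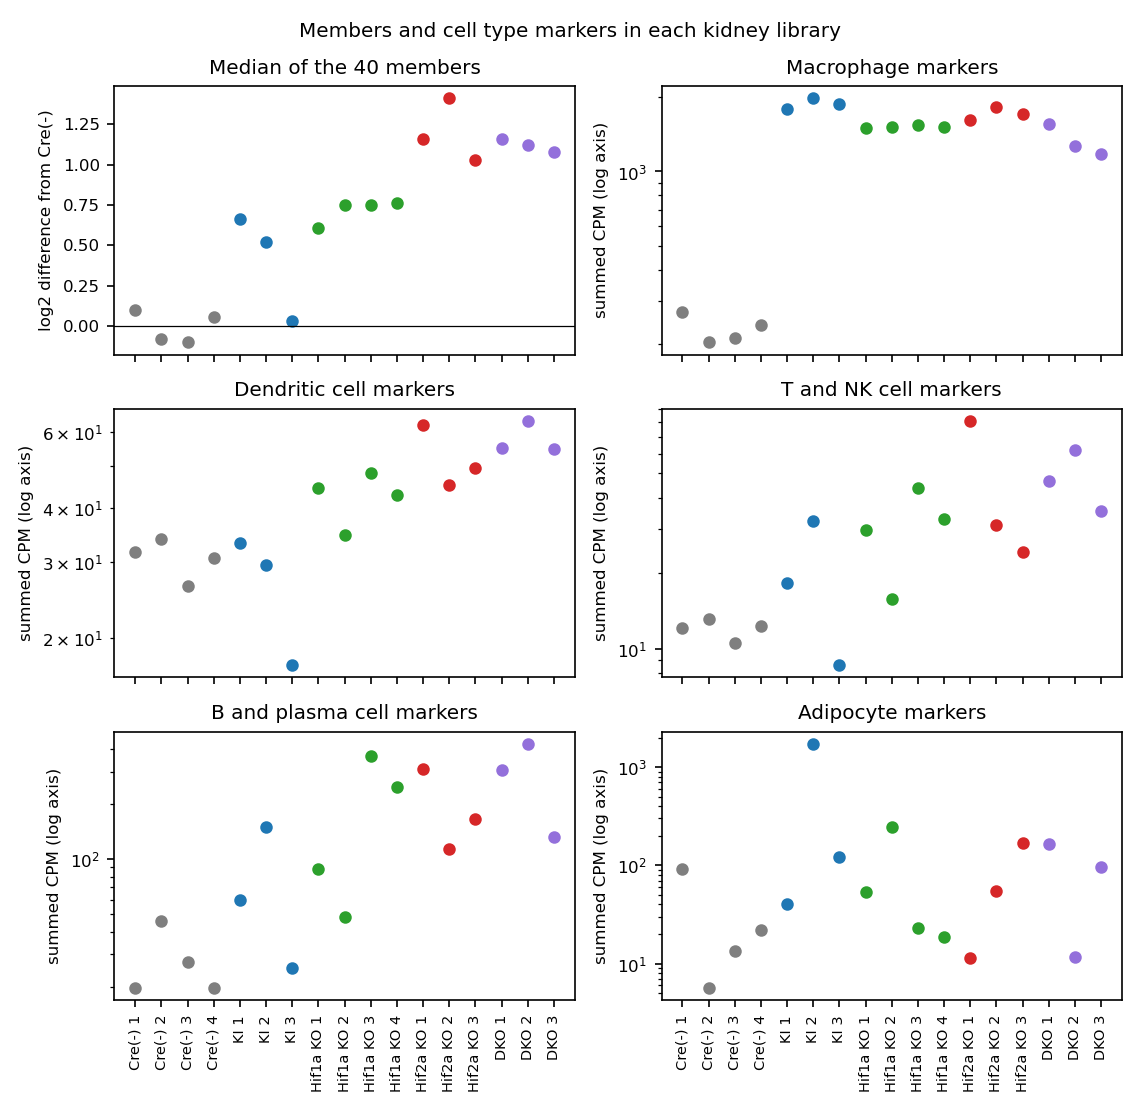
Median log2 difference of the 40 members from Cre(-) and summed CPM of 5 marker lists (log axes) in each of the 17 kidney libraries, 1 point per library coloured by group. KI replicate 3 is at 0.03 for the members and has the lowest dendritic cell sum (17.3 CPM), and the macrophage sum is at 1180.3 CPM or above in all Cre-positive libraries.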

How the data were processed

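The authors deposited expected counts per transcript and, in a matching table, TPM per transcript for 17 kidney libraries, made with Trim Galore 0.6.6, cutadapt 2.5, STAR 2.7.9a and RSEM. Their methods name hg38 for the alignment and either that build or GRCm38 for the annotation. The tables list mouse transcripts, and 116770 of 119353 (97.8%) matched GENCODE mouse release 21 on GRCm38, which leaves out 2583. These matched transcripts were summed to 35971 genes and rounded. In R 4.3.3, edgeR 4.0.16 fitted all 17 libraries with 1 coefficient per group after TMM scaling and filterByExpr with a minimum count of 10, which left out 18976 genes. Quasi-likelihood tests for 10 contrasts were adjusted by Benjamini-Hochberg over 16995 genes at a threshold of 0.05. Alternatives were DESeq2 1.42.0, edgeR with DESeq2 size factors, all genes with a count, the compared groups alone, replicate number as a block, limma 3.58.1 on log2 TPM with a pseudocount of 1 or 0.1, Cre(-) kidneys with or without the Hif1α flox allele, and each library left out. The procedure was tested on simulated data. Tables and plots used Python 3.11.15, pandas 2.3.3 and matplotlib 3.10.9.

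Members and lists were chosen with earlier results of these data known. Every member is accounted for, and 2 genes first listed for comparison are not reported here. Values in every library are given for members picked by role and for the 3 highest and 3 lowest log2 fold changes in KI against Cre(-) and in the Hif2α effect. Other lists are named by up to 5 genes with the largest called change in each of those contrasts. Mice with the same replicate number are different animals. The floor of detection was set at 3 counts and covers counting error only.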

Additional observations from a re-analysis of the deposited data

Results flagged for a closer look

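In groups of 4 libraries, a library was marked as far from the others when its gap to the nearest one took up more of the range of the group than Dixon's critical value for 4 samples allows. Among 80 groups of 4 tested, the members gave 4 such values, as chance alone gives about 1 in 20. All 4 were in the Hif1α KO group and each was the lowest of its group. Irf7 in Hif1α KO replicate 2 had 35.6 CPM, Ifih1 in replicate 1 had 18.3 CPM, Oasl2 in replicate 1 had 23.0 CPM and Lgals3bp in replicate 2 had 174 CPM.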

How the results depend on the processing

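For counts and medians, 324 values under other settings stayed within the spread of libraries or within 1.5 times the reported count and 48 moved, and for named genes 2106 kept their direction and side of the threshold, 77 lost and 44 gained it and 2 reversed. With 1 library left out, 488 counts and medians stayed and 76 moved, and for named genes 2538 calls stayed, 151 were lost and 22 gained. With DESeq2 size factors, and with only the Cre(-) kidneys that had or only those that lacked the Hif1α flox allele, none of these counts and medians moved. The reversed gene was Ifi27 in KI against Cre(-), at 0.34 on log2 TPM with a pseudocount of 1 and 0.35 with 0.1. The TPM scale shifted the median of all genes by 0.34 and 0.44 in that contrast, and with a pseudocount of 1 by 0.39 for Hif2α KO, 0.33 for Hif1α KO and 0.42 for DKO against Cre(-). With a pseudocount of 1, the median of the members was 0.71 in KI, 1.56 in Hif2α KO, 0.99 in Hif1α KO and 1.43 in DKO against Cre(-), and relative to all genes it was 0.33, 1.14, 0.63 and 0.97. Members lower were 0 in Hif2α KO and 0 in DKO, receptors lower in KI were 0, sensors lower were 0 and further interferon-stimulated genes lower were 5. The Hif1α effect had 0 members higher and 2 further interferon-stimulated genes higher, and Hif1α KO against KI had 1 member higher. With a pseudocount of 0.1, the medians were 0.82, 1.73, 1.13 and 1.58 in the same order, the lower counts were again 0, 0, 0, 0 and 5, Hif2α KO against KI had 12 members higher, the Hif1α effect 0 higher and 1 lower, and Hif1α KO against KI 1 higher.

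DESeq2 gave 31 members higher in Hif2α KO against KI, 5 in DKO against Hif1α KO and 4 in Hif1α KO against KI, 7 sensors higher for the Hif2α effect and 4 further interferon-stimulated genes higher for the Hif1α effect. Of all genes, DESeq2 called 3.12%, 0.830%, 4.59%, 6.33% and 4.10% higher in these contrasts, in the same order. Without the filter, the Hif2α effect had 2 sensors higher, the Hif1α effect 1 member lower, Hif1α KO against KI 1 higher, and Hif2α KO and DKO against Cre(-) 1 lower each. With only the compared groups in the fit, Hif2α KO against KI had 0 members higher, DKO against Hif1α KO 3, the Hif1α effect 0 higher and 1 lower and Hif1α KO against KI 0 higher and 0 lower with 1 further interferon-stimulated gene higher. Of all genes, 0.00625%, 0.215%, 1.08% and 0.696% were higher in these contrasts, in the same order. In the last 2 of them 2.27% and 0.839% were lower. With replicate number as a block, the pairing that the labels do not give, Hif2α KO against KI had 12 members higher, the Hif2α effect 2 sensors, the Hif1α effect 0 members higher and 1 lower and Hif1α KO against KI 1 higher with 3 further interferon-stimulated genes higher. Same-numbered libraries of different groups had a median correlation of -0.03 over 31 pairs (from -0.22 to 0.25, 4 over 0.1), and other pairs 0.01 over 84. Shares of all genes called are not given for the fits without the filter, with the block or with a pseudocount of 0.1. Whether those changes concern the members or all genes was not tested. The cause of these changes was not tested.

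Leaving out 1 library at a time gave these lowest and highest values, for which no shares of all genes called are given. KI against Cre(-) had 17 to 23 members higher, 4 members lower, a median of 0.27 to 0.50, 8 to 9 receptors higher, 1 receptors lower, 13 to 15 sensors higher, 2 to 3 sensors lower, 25 to 31 further interferon-stimulated genes higher, 8 to 10 further interferon-stimulated genes lower, 9 to 13 gamma-leaning genes higher and 1 gamma-leaning genes lower. The Hif2α effect had 25 to 31 members higher, 0 members lower, a median of 0.49 to 0.58, 0 to 1 receptors higher, 0 to 1 receptors lower, 2 to 7 sensors higher, 0 to 1 sensors lower, 15 to 27 further interferon-stimulated genes higher, 0 to 1 further interferon-stimulated genes lower, 4 to 15 gamma-leaning genes higher and 0 gamma-leaning genes lower. Hif2α KO against KI had 2 to 26 members higher, 0 members lower and a median of 0.59 to 0.77. DKO against Hif1α KO had 0 members higher, 0 members lower and a median of 0.28 to 0.38. The Hif1α effect had 0 to 1 members higher, 0 to 2 members lower, a median of -0.01 to 0.11, 0 to 5 further interferon-stimulated genes higher and 0 further interferon-stimulated genes lower. Hif1α KO against KI had 1 to 4 members higher, 0 to 1 members lower, a median of 0.09 to 0.28, 1 to 5 further interferon-stimulated genes higher and 0 further interferon-stimulated genes lower. The interaction had 0 members higher, 0 members lower and a median of -0.41 to -0.23. Hif2α KO against Cre(-) had 34 to 36 members higher, 1 to 3 members lower and a median of 1.21 to 1.39. Hif1α KO against Cre(-) had 27 to 31 members higher, 3 members lower and a median of 0.68 to 0.77. DKO against Cre(-) had 34 to 36 members higher, 1 to 2 members lower and a median of 1.12 to 1.18. Members without overlap were 15 to 26 for KI above Cre(-), 4 for KI below Cre(-), 15 to 24 for all Cre-positive above Cre(-), 1 to 3 for all Cre-positive below Cre(-), 23 to 26 for Hif2α flox above the other Cre-positive, 0 for Hif2α flox below the other Cre-positive, 0 for Hif1α flox above the other Cre-positive, and 1 for Hif1α flox below the other Cre-positive.

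The non-overlap counts without 1 library were chosen after seeing the data and have no share of all genes beside them. Low counts limit members such as Isg15, Oas3 and Mx2, each with 22 counts in its lowest library. Groups of 3 or 4 mice, 1 library per mouse, bulk tissue and the shared Cre(-) libraries limit each comparison.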

Other observations

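Markers of kidney cells also differed between KI and Cre(-), where edgeR called 31.9% of all genes higher and 29.1% lower. The 7 proximal tubule markers, with Lrp2 the most abundant, summed to 11815 CPM on average in Cre(-) and 731 CPM in KI, and all 7 fell (edgeR, quasi-likelihood, Benjamini-Hochberg), led by Slc22a8 (-5.93 ± 0.77), Slc22a6 (-5.30 ± 0.62), Slc13a3 (-5.01 ± 0.58), Slc34a1 (-4.97 ± 0.50) and Slc5a2 (-4.66 ± 0.37). The sums were 2217, 839, 1247 and 1128 CPM in Hif1α KO, 2013, 655 and 831 CPM in Hif2α KO and 1281, 1851 and 1528 CPM in DKO. The 5 distal nephron markers fell in KI, from a mean sum of 9467 CPM to 1964 CPM, with Slc12a3 at -3.76 ± 0.45 and Slc12a1 at -3.60 ± 0.39, and Umod, the most abundant of them, was the 1 of 5 that rose for the Hif2α effect (0.75 ± 0.19), a call that ended without KI replicates 2 or 3, Hif1α KO replicates 2 or 4, Hif2α KO replicate 1 or DKO replicates 2 or 3. In Hif1α KO against KI, 5 of 7 proximal tubule markers rose (median 1.54, 0 to 5 with 1 library left out) and 3 of 5 distal nephron markers (1 to 3). In Hif2α KO against KI, edgeR called 0 of 7 proximal tubule markers (median 1.08, 5 higher at an unadjusted p under 0.05, 1 by DESeq2) and 1 of 5 distal nephron markers higher (median 1.04, 5 higher at an unadjusted p under 0.05, 0 to 2 with 1 library left out). The podocyte markers Nphs1 (-2.81 ± 0.31) and Podxl (-1.76 ± 0.17) also fell in KI.

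By edgeR 3 of 5 endothelial markers fell in KI, Kdr (-0.80 ± 0.15), Tie1 (-0.66 ± 0.13) and Emcn (-0.54 ± 0.19, a call that ended without Cre(-) replicate 4 or KI replicates 1 or 2), but by limma on log2 TPM 0 fell and 1 rose. Of 3 tested neutrophil markers Cxcr2 fell (-1.50 ± 0.27) and 0 rose by edgeR, with 1 higher at an unadjusted p under 0.05, 1 by DESeq2 and 1 by limma on log2 TPM, and a median of 0.53. The 5 adipocyte markers summed to 40.5, 1719 and 121 CPM in the KI libraries and to 5.63 to 246 CPM in the others, and 3 of 5 rose in KI, Cfd (4.57 ± 1.51), Cidec (4.30 ± 1.27) and Adipoq (3.39 ± 1.20), which became 0 without KI replicate 2. Of 4 Y-linked genes in the table, Kdm5d was at 7.56 to 19.2 CPM, Uty at 0.312 to 1.05 CPM, Ddx3y at 0 to 0.203 CPM and Eif2s3y at 0 to 0.102 CPM. Kdm5d was lower in KI than in Cre(-) (-0.85, edgeR adjusted p = 0.0011), but limma on log2 TPM called 0 of the 2 tested. By edgeR 2 of 2 were lower in Hif2α KO, 1 in Hif1α KO and 1 in DKO against Cre(-). Xist was listed but was not in the count table. The part of sex in the group differences was not tested.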
